A study of Mus musculus with 12 samples.

Results

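Interleukin-6 (IL-6) family genes were examined in primary mouse embryonic fibroblasts (MEFs) that had or lacked the acetyltransferase coactivators CBP and p300, with and without an iron chelator. The family was set as 10 genes by symbol: the cytokine genes Il6, Lif, Il11, Clcf1 and Ctf1, the receptor genes Il6st, Lifr, Il6ra and Osmr, and the feedback inhibitor gene Socs3. All 10 were measured, out of 17097 genes on the array. Each gene was represented by its probe set of highest mean over the 12 arrays, among the probe sets annotated with that symbol alone. Probe sets were thus chosen by their mean level. The family was proposed with earlier results of these data known, among them the changes of Il6 and Lif with the chelator in each genotype. Those changes and their differences between genotypes are given as a description. The levels of Il6 and Lif come from the same arrays, so the differences of level between genotypes are a description for them too.

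The strain of the MEFs was C57Bl/6 x 129Sv (F1), their stage e14.5 and their passage number 4. Wild-type MEFs and MEFs homozygous for conditional alleles of both coactivator genes all received adenovirus expressing Cre recombinase, for 16 h (multiplicity of infection, 100), so that control cells carried virus and Cre too; cells of the second kind are called CBP/p300 null (dKO). After 48 h in 3% oxygen and 24 h in normoxia, cultures received 100 µM 2,2'-dipyridyl (DP) or the vehicle ethanol for 3 h. DP chelates iron and thereby inhibits the oxygen- and iron-dependent hydroxylases that keep hypoxia-inducible factor (HIF) low. The 4 groups held 3 arrays each: wild type in ethanol and wild type with DP (MEF lines 3, 4 and 5), and dKO in ethanol and dKO with DP (MEF lines 1, 5 and 6). Each line gave 1 culture per treatment, and line 5 of one genotype is unrelated by label to line 5 of the other.

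Cytokines of the IL-6 family signal through receptor complexes that contain gp130, the product of Il6st. IL-6 and IL-11 bind their own alpha receptors and then pair gp130 molecules, whereas LIF, cardiotrophin-1 and cardiotrophin-like cytokine recruit gp130 together with the LIF receptor, and oncostatin M uses gp130 with its own receptor. The complexes activate JAK kinases and the transcription factor STAT3, and STAT3 induces Socs3, whose product binds gp130 and shuts the signal off. In fibroblasts IL-6 and LIF are secreted in response to inflammatory cytokines, growth factors and stress, and the Il6 promoter is a textbook target of NF-kB, C/EBP, CREB and AP-1 factors, several of which bind CBP and p300.

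Promoter sequences are shown for the cytokine gene of largest difference between genotypes in ethanol (Il6), the cytokine gene raised by DP (Lif), the receptor gene of largest difference between genotypes (Osmr) and the only member called higher in dKO cells (Ctf1). Each is the 250 bases before a RefSeq transcription start in build GRCm38.p6, 5′ to 3′ on the strand of the gene, with motif matches in capitals. Il6 lies at chr5:30012864-30013113 (plus strand), Lif at chr11:4257318-4257567 (plus strand), Osmr at chr15:6874314-6874563 (minus strand) and Ctf1 at chr7:127712453-127712702 (plus strand). The Osmr gene spans chr15:6813568-6874968, so its stretch lies inside the gene. The Ctf1 gene begins at chr7:127712676, so its stretch overlaps the gene. For these genes the start used is thus not the outermost one.
Il6: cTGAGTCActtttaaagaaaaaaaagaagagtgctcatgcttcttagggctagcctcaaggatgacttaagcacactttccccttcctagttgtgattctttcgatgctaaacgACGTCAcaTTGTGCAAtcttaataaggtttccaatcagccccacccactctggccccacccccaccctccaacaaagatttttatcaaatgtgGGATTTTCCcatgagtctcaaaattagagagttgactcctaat
Lif: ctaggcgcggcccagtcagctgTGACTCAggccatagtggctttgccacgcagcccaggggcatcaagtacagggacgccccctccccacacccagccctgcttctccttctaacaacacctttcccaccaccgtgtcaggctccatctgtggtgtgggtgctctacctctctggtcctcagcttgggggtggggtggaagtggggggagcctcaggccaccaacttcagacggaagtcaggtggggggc
Osmr: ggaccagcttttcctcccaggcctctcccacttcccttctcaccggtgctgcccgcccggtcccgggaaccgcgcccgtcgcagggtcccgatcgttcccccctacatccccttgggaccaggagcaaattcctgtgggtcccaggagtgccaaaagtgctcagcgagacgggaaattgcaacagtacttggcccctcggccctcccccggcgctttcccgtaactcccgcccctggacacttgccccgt
Ctf1: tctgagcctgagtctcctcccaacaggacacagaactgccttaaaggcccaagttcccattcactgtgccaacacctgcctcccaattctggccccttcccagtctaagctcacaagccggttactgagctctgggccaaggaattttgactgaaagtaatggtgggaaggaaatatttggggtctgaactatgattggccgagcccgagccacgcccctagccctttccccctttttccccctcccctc

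The motifs searched, on both strands, were TGANTCA for AP-1, TGACGT for the cAMP response element, TTGNGCAA for C/EBP, GGANTTTCC for NF-kB, ACGTG for the core of the hypoxia response element and TTCNNNGAA for STAT factors. The Il6 stretch held 4 of the 6, namely an AP-1 match from 249 to 243 bases before the start, a cAMP response element on the reverse strand from 136 to 131, a C/EBP match from 128 to 121 and an NF-kB match from 43 to 35. Among all 32851 promoter stretches of this length, an AP-1 match was present in 6.75%, a cAMP response element in 6.47%, a C/EBP match in 2.61% and an NF-kB match in 1.07%. The Lif stretch held an AP-1 match from 228 to 222 bases before the start, and the Osmr and Ctf1 stretches held none of the 6 motifs. Promoter entries were matched for 9 of the 10 members. Among those not printed, Socs3 held a STAT match (TTCTTAGAA, 154 to 146 bases before the start, present in 7.02% of stretches), and 1 of the 2 Il11 starts held an AP-1 match. Il6ra held the letters CACGTG, a single site whose hypoxia response element core reads on either strand (a match is present in 16.6%). The Socs3 stretch, the Lifr stretches and the Il11 stretch with the match also lie inside the spans of their genes. A match is a description of letters in this window. Neither a match nor the lack of one says anything of binding.

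Values are log2 probe set signals made by the authors with RMA, and array medians lay between 3.87 and 3.98. A level of 3.58 log2, the 95th percentile of the array's blank control probe sets, is called the blank level, and a difference from a group near it is understated. The CBP gene Crebbp had a lower level in dKO cells by 0.85 ± 0.16 (SE of the difference, n = 3 arrays per group) in ethanol, with a limma adjusted p of 0.000992; the sources used here do not say whether its probe set falls in the deleted part. Xist, an RNA of female cells, was at 3.94 to 5.32 in dKO and at 10.3 to 10.7 in wild-type cells, so embryo sex and genotype cannot be told apart. All 10 fibroblast markers were called lower in dKO cells in both treatments, against 14.1% of all genes in ethanol and 16.9% under DP. Their median difference was -1.55 in ethanol, and their mean level lay between 10.2 and 10.3 on wild-type and 8.24 and 8.76 on dKO arrays. In such bulk samples fewer cells of a type and less RNA per cell cannot be told apart. A sign of RNA quality, the 3′ minus 5′ signal of beta-actin, moved with both comparisons: it was 0.23 to 0.25 in ethanol and 0.28 to 0.38 with DP for wild type, and 0.40 to 0.45 in ethanol and 0.48 to 0.60 with DP for dKO. That of Gapdh did not rise with DP in the same way. It was -0.03 to 0.15 in ethanol and 0.04 to 0.17 with DP for wild type, and 0.19 to 0.21 in ethanol and 0.10 to 0.19 with DP for dKO. The part of RNA quality in the results was not tested. Least correlated with the rest of their groups were the ethanol arrays of line 5 in wild type (mean r = 0.99 over all genes) and line 1 in dKO (0.989).

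**Figure D1:**
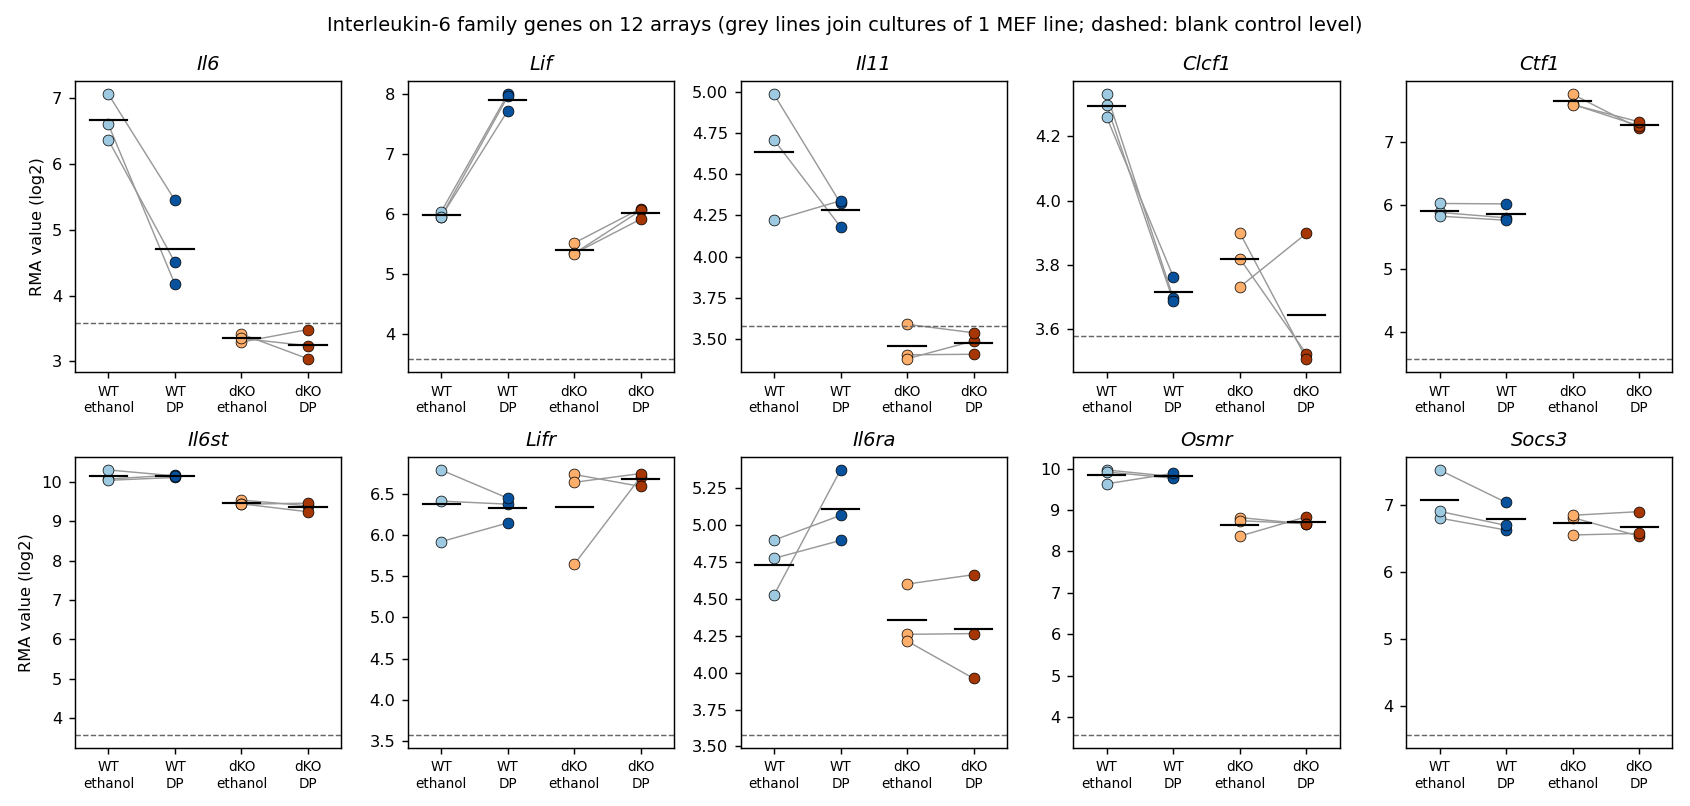
Log2 RMA value (vertical axis, a separate scale for each gene) of each of the 10 genes on the 12 arrays, by group. Points are arrays, black bars group means, grey lines join the cultures of 1 MEF line, and the dashed line is the blank level of 3.58; Il6 lies under it on all 6 dKO arrays, and Lif is highest on the 3 wild-type DP arrays.

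Il6, which encodes the inflammatory cytokine that names the family, was the member with the largest difference between genotypes in ethanol. In wild-type ethanol cultures its value was 7.06 in line 3, 6.37 in line 4 and 6.60 in line 5. With DP it was 5.45, 4.50 and 4.17 in the same lines. In dKO lines 1, 5 and 6 it was 3.29, 3.42 and 3.35 in ethanol and 3.48, 3.04 and 3.24 with DP. Every dKO value was under the blank level and below every wild-type value, and the wild-type groups did not overlap. The order of the levels was thus wild-type ethanol, wild-type DP, and then both dKO groups, which overlapped.

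Set against wild type, Il6 was lower in dKO cells by 3.33 ± 0.27 in ethanol and by 1.46 ± 0.27 under DP. Both values are understated, since the dKO level was that of the blank controls. Both also share arrays with the known DP changes of Il6, so they are a description and no p-value is given. Within wild-type lines DP was accompanied by a fall of 1.61, 1.86 and 2.43 in lines 3, 4 and 5, a mean change of -1.97 ± 0.27. In dKO lines the change was 0.19, -0.38 and -0.11, a mean of -0.10 ± 0.27 from a level at which no fall could have been measured. The DP changes differed by 1.87 ± 0.38 between genotypes. Macrophages are another source of IL-6, and 3 of 10 macrophage markers were lower and 2 higher in dKO cells in ethanol. Over all genes 14.1% were lower and 19.5% higher. The lysozyme gene Lyz2 lay between 6.77 and 8.88 in wild-type and 4.21 and 5.13 in dKO ethanol cultures, and Tyrobp and Csf1r were lower in dKO by 1.37 and 0.66. The markers higher in dKO were Cd68 by 1.53 and Cd14 by 0.99. Ptprc, Itgam and Aif1 were at or under the blank level in all groups. The mean of the 10 markers lay between 4.09 and 4.80 on wild-type and 4.15 and 4.27 on dKO ethanol arrays. The part of such cells in the Il6 difference was not tested.

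Lif encodes leukemia inhibitory factor, best known for keeping mouse embryonic stem cells undifferentiated. Its value in wild-type ethanol cultures was 5.95, 6.03 and 5.95 in lines 3, 4 and 5. With DP it was 7.72, 7.99 and 7.95. In dKO lines 1, 5 and 6 it was 5.51, 5.34 and 5.34 in ethanol and 6.09, 6.05 and 5.91 with DP. Wild-type DP cultures were highest, dKO ethanol cultures lowest, and the dKO DP range enclosed the wild-type ethanol range, so that these neighbours in the order did not differ beyond their spread. DP was accompanied by a higher Lif value in each of the 6 lines, by at least 1.77 in each wild-type line (3.76-fold on average) and by 0.57 to 0.72 in dKO (1.54-fold).

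The change of Lif with DP was smaller in dKO lines by 1.29 ± 0.14, and every dKO line changed less than every wild-type line. Of the 10 members, 1 (Lif) was called for a difference of DP changes between genotypes, where 0.562% of all genes were called, 0.0468% with a higher and 0.515% with a lower value in dKO. Nothing is read from that count, since both changes of Lif were known. Lif was lower in dKO cells by 0.58 ± 0.10 in ethanol and by 1.87 ± 0.10 under DP, the latter a ratio of 3.65-fold. Both differences share arrays with the known DP changes of Lif, so they are a description and no p-value is given. Of its 2 other probe sets, 1 had wild-type means of 3.61 in ethanol and 4.15 with DP, and dKO means of 3.38 and 3.47. The other stayed under the blank level in all groups. With the mean of the 3 probe sets the dKO change was 0.29 and the difference between responses -0.56.

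Il11 and Clcf1 were dim genes with lower values in dKO cells. Il11, which encodes a cytokine of bone and stromal cells, was 4.71, 4.98 and 4.22 in wild-type ethanol cultures of lines 3, 4 and 5, and 4.18, 4.32 and 4.34 with DP. All 6 dKO values lay between 3.38 and 3.59, with group means under the blank level. It was lower in dKO by 1.18 ± 0.16 in ethanol and by 0.80 ± 0.16 under DP (limma adjusted p = 6.64e-05 and 0.0013). Its change with DP in wild type, -0.36 ± 0.16, did not pass (limma adjusted p = 0.295), as lines 3 and 4 changed by -0.53 and -0.66 and line 5 by 0.12. Without the ethanol array of line 5 the change was -0.57 and passed (limma adjusted p = 0.0144).

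Clcf1 encodes cardiotrophin-like cytokine factor 1, a ligand of the ciliary neurotrophic factor receptor. Its value was 4.26, 4.33 and 4.30 in wild-type ethanol cultures and 3.76, 3.70 and 3.69 with DP. The wild-type groups did not overlap, and the fall of 0.58 ± 0.11 passed (limma adjusted p = 0.00655). In dKO lines 1, 5 and 6 it was 3.82, 3.73 and 3.90 in ethanol and 3.52, 3.90 and 3.51 with DP, a change of -0.17 ± 0.11 that did not pass. The difference between these DP changes did not pass either (0.41 ± 0.15, limma adjusted p = 0.633). Clcf1 was lower in dKO in ethanol by 0.48 ± 0.11 (limma adjusted p = 0.00387), and under DP the genotypes differed by -0.07, with a 95% interval from -0.31 to 0.16. A further 2 probe sets list Clcf1 beside another gene and were left out.

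Ctf1, which encodes cardiotrophin-1, a cytokine first known for its action on heart muscle cells, went the other way. Its value was 5.89, 5.83 and 6.03 in wild-type ethanol cultures and 5.80, 5.76 and 6.02 with DP. In dKO lines 1, 5 and 6 it was 7.75, 7.59 and 7.59 in ethanol and 7.22, 7.25 and 7.32 with DP. All dKO values were above all wild-type values. The difference was 1.73 ± 0.10 in ethanol, or 3.31-fold, and 1.40 ± 0.10 under DP, or 2.64-fold (limma adjusted p = 9.31e-08 and 4.53e-07). The 3 dKO lines each had a lower value with DP, without overlap of the groups, but the change of -0.38 ± 0.10 did not pass over all genes (limma adjusted p = 0.0935). In wild type it changed by -0.05 with DP, with a 95% interval from -0.27 to 0.16.

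Among the receptors, Il6st and Osmr were bright and lower in dKO cells, with no call for DP at their brightest probe sets. Il6st, the gp130 gene on which the whole family depends, was 10.1, 10.0 and 10.3 in wild-type ethanol cultures and 10.2, 10.1 and 10.2 with DP. In dKO it was 9.54, 9.44 and 9.45 in ethanol and 9.40, 9.46 and 9.24 with DP. It was lower by 0.67 ± 0.10 in ethanol and by 0.78 ± 0.10 under DP (limma adjusted p = 0.000146 and 3.9e-05). Its DP change was 0.01 in wild type, with a 95% interval from -0.20 to 0.22, and -0.11 in dKO, with an interval from -0.32 to 0.11. Both further Il6st probe sets were also lower in dKO in ethanol, by 0.55 ± 0.09 and 0.79 ± 0.13. The dimmer of them differed from the main one over DP, and fell by 0.49 ± 0.09 in wild type and by 0.48 ± 0.09 in dKO (limma adjusted p = 0.00958 and 0.025 over all probe sets). The other changed by -0.19 ± 0.13 and -0.15 ± 0.13, and neither change passed. The sources used here do not say which part of the Il6st transcripts each probe set reads.

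Osmr encodes the receptor subunit that pairs with gp130 to bind oncostatin M. Its value was 9.97, 9.92 and 9.63 in wild-type ethanol cultures and 9.81, 9.77 and 9.88 with DP. In dKO lines 1, 5 and 6 it was 8.37, 8.82 and 8.74 in ethanol and 8.84, 8.66 and 8.67 with DP, below every wild-type value. The difference was -1.20 ± 0.13 in ethanol and -1.10 ± 0.13 under DP (limma adjusted p = 1.25e-05 and 2.42e-05), a level 2.29-fold and 2.14-fold lower. A second, dimmer Osmr probe set was lower in dKO by 1.15 ± 0.21 in ethanol (limma adjusted p = 0.00117), and the remaining one was at or under the blank level in all groups. With DP Osmr changed by -0.02 in wild type and 0.08 in dKO, with 95% intervals from -0.30 to 0.26 and from -0.20 to 0.36.

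Lifr and Il6ra, the genes for the LIF receptor subunit and the IL-6 alpha receptor, were less clear. Lifr was 6.41, 6.79 and 5.92 in wild-type ethanol cultures and 5.65, 6.73 and 6.64 in dKO lines 1, 5 and 6, so the groups overlapped, and their lowest values came from the 2 ethanol arrays that correlated least with their groups. With DP it lay between 6.15 and 6.45 in wild type and between 6.59 and 6.75 in dKO. The genotypes did not overlap under DP, but the difference of 0.36 ± 0.26 did not pass with all arrays (limma adjusted p = 0.329). It passed when those 2 ethanol arrays were left out (limma adjusted p = 0.0246), where the estimate of spread was smaller and the value the same. Both further, dimmer Lifr probe sets differed the other way under DP, by -0.202 ± 0.174 and -0.195 ± 0.088. Neither passed (limma adjusted p = 0.4275 and 0.1144 over all probe sets). Il6ra, without which cells answer IL-6 only through the soluble receptor, was 4.53, 4.78 and 4.90 in wild-type ethanol cultures and 5.37, 4.90 and 5.07 with DP. In dKO it was 4.26, 4.21 and 4.60 in ethanol and 4.27, 3.96 and 4.66 with DP. The Il6ra difference between genotypes passed under DP (-0.82 ± 0.18, limma adjusted p = 0.00368) and not in ethanol (-0.38 ± 0.18, limma adjusted p = 0.146), and the difference between these was not called (-0.44 ± 0.26, limma adjusted p = 0.961). A further Il6ra probe set was under the blank level in all groups. Its difference under DP, -0.21 ± 0.11, did not pass (limma adjusted p = 0.161 over all probe sets).

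Socs3, the feedback inhibitor induced by STAT3, was called in none of the 5 tests with all 12 arrays, and neither was Lifr. Its value was 6.80, 6.90 and 7.51 in wild-type ethanol cultures and 6.62, 6.69 and 7.03 with DP. In dKO lines 1, 5 and 6 it was 6.81, 6.55 and 6.84 in ethanol and 6.53, 6.57 and 6.89 with DP. All 4 groups overlapped. The difference between genotypes was -0.34 ± 0.18 in ethanol, with a 95% interval from -0.74 to 0.06, and -0.12 ± 0.18 under DP, with an interval from -0.52 to 0.28. Its DP change was -0.29 ± 0.18 in wild type and -0.07 ± 0.18 in dKO (limma adjusted p = 0.526 and 0.9). After cyclic loess normalization the ethanol difference was -0.55 and passed (limma adjusted p = 0.0296).

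**Figure D2:**
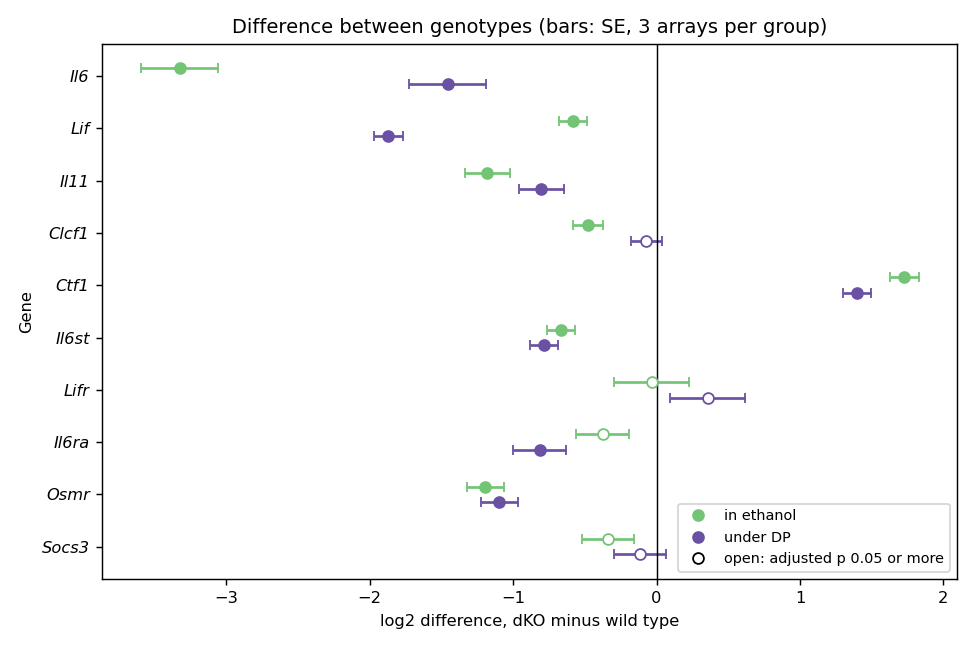
Difference between dKO and wild-type cells (horizontal axis, log2 difference) for the 10 genes in ethanol and under DP, with SE bars and 3 arrays per group; filled points passed an adjusted p of 0.05. Il6, Lif, Il11, Il6st and Osmr lie left of 0 and Ctf1 right of 0 in both treatments, all filled. For Il6 and Lif the filling is a description in both treatments. Their DP changes, taken from the same arrays, were known when the family was chosen.

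Counted together, 7 of the 10 members differed between genotypes in ethanol, 6 of them lower in dKO and 1 higher. Over all genes 33.6% were called in this comparison, 14.1% lower and 19.5% higher. Under DP 7 of 10 differed as well, again 6 lower and 1 higher, against 35.4% of all genes, 16.9% lower and 18.5% higher. In both treatments the lower ones include Il6 and Lif. Their changes with DP, taken from the same arrays, were known when the family was chosen. The counts and medians given here hold these genes. The groups did not overlap for 7 members in ethanol, against 40% of all genes, and for 8 under DP, against 53.8%. The median difference of the 10 members was -0.53 in ethanol and -0.79 under DP, and that of all genes was -0.01 in both. Il6, Lif, Il11, Il6st and Osmr were lower and Ctf1 higher in both treatments; Clcf1 was called in ethanol and Il6ra under DP. These comparisons share no arrays, but they share MEF lines.

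For DP against ethanol, 3 of 10 members were called in wild type (Il6, Lif and Clcf1), where 4.73% of all genes were called, 3.05% higher and 1.67% lower. In dKO 1 of 10 (Lif) was called, where 1.5% of all genes were, 1.01% higher and 0.491% lower. Groups did not overlap for 3 members in wild type and 2 in dKO, against 22.6% and 20.7% of all genes. As Il6 and Lif were known to change when the family was chosen, nothing is read from these counts. At the probe sets of highest mean none of the 4 receptor genes was called for DP in either genotype by limma, and their changes lay between -0.11 and 0.38; a dimmer Il6st probe set fell in both genotypes, as given above.

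**Figure D3:**
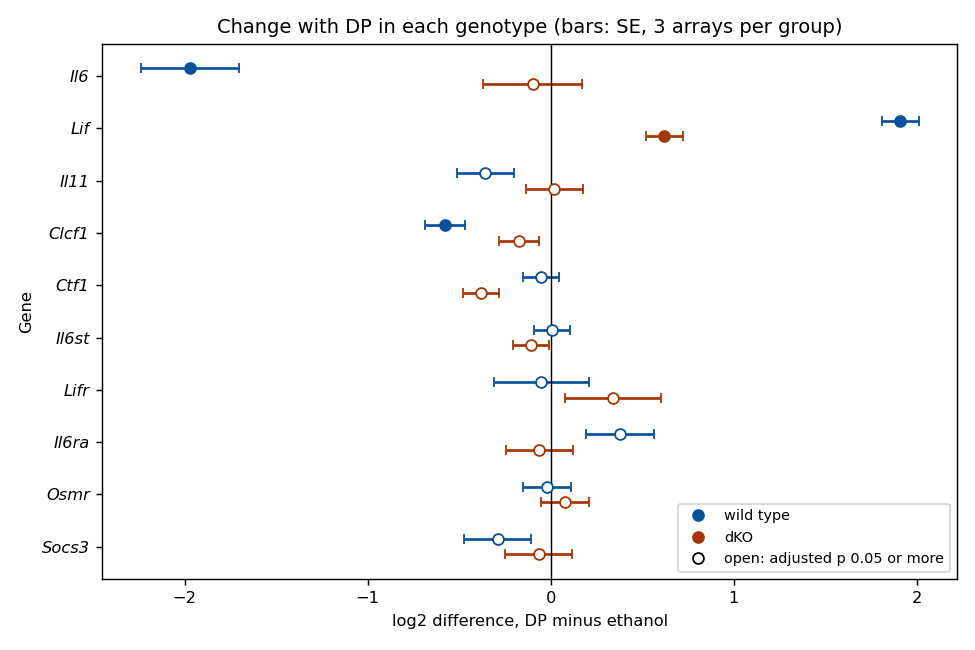
Change with DP (horizontal axis, log2 difference of DP minus ethanol) for the 10 genes in wild-type and dKO cells, with SE bars and 3 arrays per group; filled points passed an adjusted p of 0.05. Lif is the only gene filled in both genotypes, at 1.91 in wild type and 0.62 in dKO, and Il6 is at -1.97 in wild type and near 0 in dKO, where it was at the blank level. For these genes the filling is a description, as their changes were known when the family was chosen.

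Other genes of the pathway were read from lists set by symbol. Of 5 further ligands and receptors measured, limma called none for DP in wild type, for DP in dKO or between genotypes in ethanol. Over all genes 4.73%, 1.5% and 33.6% were called. Of the 5, 0, 1 and 3 had an unadjusted limma p under 0.05. With array weights limma called 1 of them for DP in dKO and 3 between genotypes in ethanol; in the latter comparison 2 were called after median centring or without the dKO array of line 1, and 1 after cyclic loess, without the dimmest genes, without the dKO array of line 5, without the wild-type array of line 4 or without both deviating ethanol arrays. Under DP Cntfr, the receptor subunit gene for ciliary neurotrophic factor and for the Clcf1 product, was lower in dKO by 0.58 ± 0.15 (limma adjusted p = 0.00741), and 2 of the 5 were called when the DP array of wild-type line 3 was left out. Of 17 genes of JAK-STAT signalling and its brakes, 8 were higher and 1 lower in dKO cells in ethanol, against 19.5% higher and 14.1% lower over all genes, with a median of 0.37 against -0.01. The transcription factor gene Stat5b was higher by 0.91 ± 0.12, the tyrosine phosphatase gene Ptpn6 by 0.90 ± 0.12, the adaptor gene Gab1 by 0.80 ± 0.09 and the cytokine signalling inhibitor gene Socs2 by 0.76 ± 0.11. With the mean of its probe sets Stat5b no longer passed (0.19, limma adjusted p = 0.158). Under DP 8 were again higher and 1, Stat3, lower in dKO, against 18.5% higher and 16.9% lower over all genes. Among the 8 were Socs2, higher by 1.16 ± 0.11, and Pias1, which encodes an inhibitor of STAT binding, higher by 0.60 ± 0.13. Stat3 itself differed by -0.39 ± 0.11 under DP (limma adjusted p = 0.011) and by -0.14 ± 0.11 in ethanol, which did not pass.

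With DP in wild type 3 of these 17 genes fell and 1 rose, against 1.67% lower and 3.05% higher over all genes. Socs2 fell by 0.69 ± 0.11, Socs5, another cytokine signalling inhibitor gene, by 0.53 ± 0.09 and Pias3 by 0.51 ± 0.11. The kinase gene Jak1 rose by 0.46 ± 0.11 (limma adjusted p = 0.0319). Of the 6 wild-type arrays, leaving out any but the ethanol array of line 4 ended the call of Jak1, and leaving out the ethanol array of line 5 or the DP array of line 3 ended that of Pias3. With the mean of their probe sets neither passed (limma adjusted p = 0.0818 for Jak1 and 0.0654 for Pias3), and Jak1 also missed after median centring (adjusted p = 0.109). In dKO none of the 17 was called by limma with equal weights for all arrays, where 1.5% of all genes were. Of the 17, 5 had an unadjusted limma p under 0.05. With array weights 5 were called, and 1 was without the ethanol array of dKO line 5.

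Among 20 genes known as STAT3 targets, 9 were lower and 5 higher in dKO cells in ethanol, against 14.1% lower and 19.5% higher over all genes, with a median of -0.35 against -0.01. Bcl3, an IkB-like coregulator gene, was lower by 2.40 ± 0.15, the cyclin gene Ccnd1 by 2.26 ± 0.12 and the interleukin-4 receptor gene Il4ra by 2.12 ± 0.24. Fos, which encodes an AP-1 subunit and is induced by many other signals, was higher by 3.09 ± 0.20. Under DP 10 were lower and 3 higher, against 16.9% lower and 18.5% higher over all genes. Myc, the growth regulator gene, was lower by 1.65 ± 0.13. With DP in wild type Fos and Junb, also an AP-1 subunit gene, rose by 1.97 ± 0.20 and 0.96 ± 0.13 and Myc fell by 0.74 ± 0.13. Over all genes 3.05% were called higher and 1.67% lower there. In dKO none of the 20 was called by limma with equal array weights, against 1.5% of all genes (5 of the 20 at an unadjusted p under 0.05). With estimated array weights 5 were called in wild type and 1 in dKO. The Fos response to DP was smaller in dKO by 1.80 ± 0.28 (limma adjusted p = 0.0082), from a dKO ethanol mean of 9.23 against 6.14 in wild type.

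**Figure D4:**
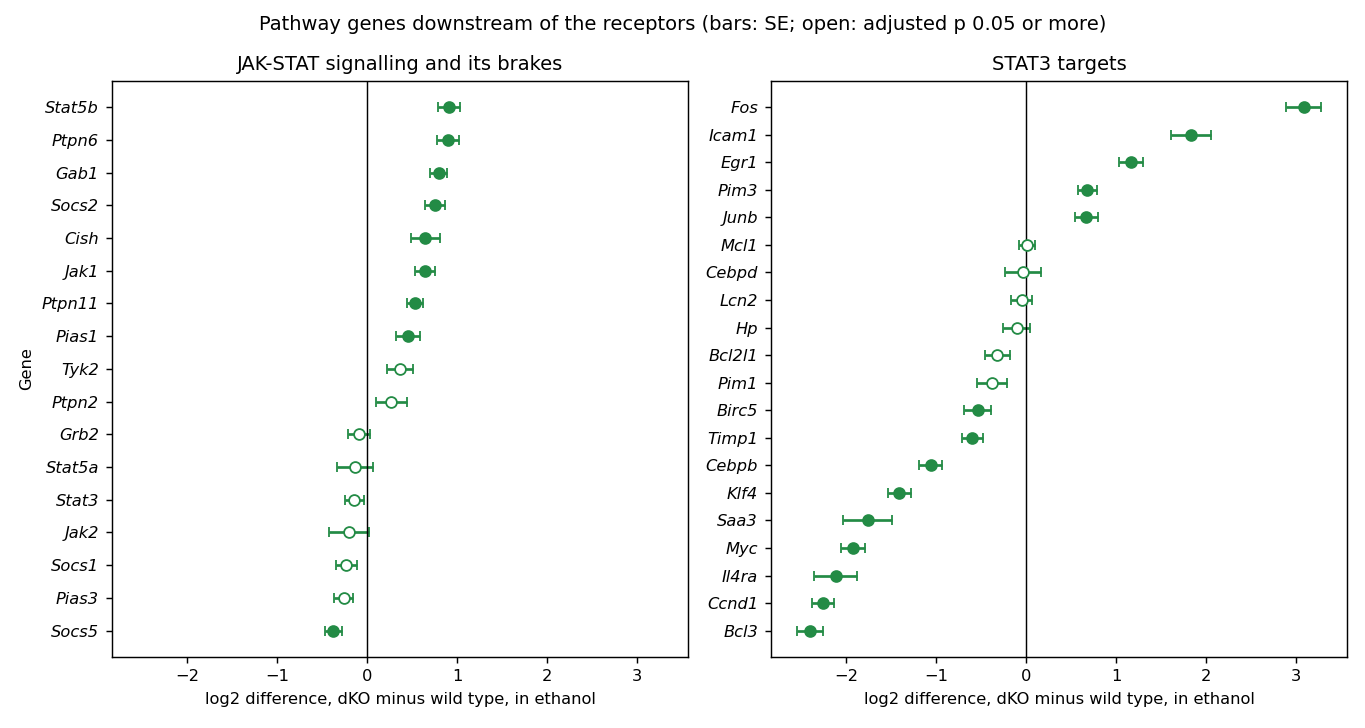
Difference between dKO and wild-type cells in ethanol (horizontal axis, log2 difference, with SE bars and 3 arrays per group) for 17 JAK-STAT genes (left) and 20 STAT3 targets (right), sorted by value; filled points passed an adjusted p of 0.05. On the left 8 filled points lie right of 0 and 1 left; on the right 5 lie right and 9 left, with Fos at 3.09 and Bcl3 at -2.40.

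Regulators of Il6 transcription and of its mRNA decay moved in both directions. Of 16 measured, 6 were lower and 4 higher in dKO cells in ethanol, against 14.1% and 19.5% of all genes. Il1r1, which encodes the interleukin-1 receptor that drives Il6 in fibroblasts, was lower by 1.86 ± 0.23 in ethanol and by 2.21 ± 0.23 under DP. Nfkbiz, which encodes a nuclear IkB protein needed for Il6 induction, was lower by 1.28 ± 0.15 in ethanol, and the prostaglandin synthase gene Ptgs2 by 1.17 ± 0.13. Irak3, an inhibitor of interleukin-1 and Toll-like receptor signalling, was higher by 1.33 ± 0.19. Under DP 5 were lower and 4 higher, against 16.9% and 18.5% of all genes. Zc3h12a, the gene for an RNase that degrades Il6 mRNA, was lower there by 1.14 ± 0.14. Of the NF-kB subunit genes measured, Rela was called higher in dKO by 0.55 ± 0.12 in ethanol and by 0.63 ± 0.12 under DP. Relb was called higher by 0.68 ± 0.14 and 0.83 ± 0.14, and Nfkb2 was called in neither treatment.

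With DP in wild type 3 of the 16 rose and 1 fell, against 3.05% higher and 1.67% lower over all genes. Tnfaip3, which encodes an inhibitor of NF-kB signalling, rose by 1.78 ± 0.10, Ptgs2 by 0.81 ± 0.13 and Zc3h12a by 0.80 ± 0.14, and the adaptor gene Myd88 fell by 0.58 ± 0.13. Myd88 no longer passed when ethanol of line 5, DP of line 4 or DP of line 5 was left out (limma adjusted p = 0.0554, 0.0938 and 0.0551). With array weights 6 of the 16 were called in dKO, against 3 with equal weights, where 1.5% of all genes were called. In dKO Tnfaip3 rose by 1.81 ± 0.10, Nfkbiz by 0.91 ± 0.15 and Ptgs2 by 0.72 ± 0.13. The Ptgs2 call in dKO was lost with the mean of its probe sets (0.38, limma adjusted p = 0.189) and when any 1 of 4 dKO arrays was left out: either array of line 1, ethanol of line 6 or DP of line 5 (limma adjusted p from 0.0553 to 0.0846).

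The genes with patterns most like those of single members were ranked by Pearson's r over the 12 arrays, among genes averaging 5 log2 or more (8917 for Il6, 8916 for Lif and Socs3). These arrays share groups and lines, so r is a description. Nearest to Il6 were the dioxin receptor gene Ahr (0.981), the chemokine gene Cxcl1 (0.965), Enc1 and the repressor gene Snai2 (both 0.961) and Gadd45a (0.959). Ahr, like Il6, was highest in wild-type ethanol, with means of 7.34 there, 5.71 in wild-type DP and 4.07 and 4.16 in dKO ethanol and DP. Nearest to Lif were the carbonic anhydrase gene Car12 (0.994), Slc41a2 (0.986), Rab33a (0.983), Id2 (0.982) and Tlcd3a (0.98). Car12 had means of 4.39 and 8.03 in wild-type ethanol and DP, and of 3.59 and 4.53 in dKO. Nearest to Socs3 was Ipo9, at 0.925.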

How the data were processed

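The authors deposited log2 signals per probe set; the submitters' processing notes name RMA, which subtracts background, equalises arrays and combines probes, and Affymetrix Expression Console 1.1. No genome build is named in the sources used here. Scanned intensities were not used here. Per the labels, 100 ng of RNA was used per array. The number of arrays limits the precision.

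Of 45141 probe sets, 28898 had 1 gene symbol, 551 several and 15588 none, and 104 were controls. For 28689 probe sets the gene identifier was found in the GRCm38.p6 table and the symbol was taken from there, changed or not. The blank level used 40 control probe sets over all arrays. The model was fitted in limma 3.58.1 (R 4.3.3), with a mean for each group over 12 arrays, Benjamini-Hochberg adjustment over 17097 genes and calls under 0.05; standard errors are moderated. The fit was tested on simulated data. Figures used Python 3.11.15 with matplotlib 3.10.9. Replicates are separate MEF lines by label. The labels give both treatments the same numbered line, which is the source of the pairing; deviations from group means of paired arrays correlated at 0.04 to 0.42 over 8917 genes. Members, lists, tests and alternatives were chosen with earlier results of these data known. Named were all members, up to 4 called genes per list and comparison, and the 5 genes most like Il6, Lif and Socs3. Some are given as counts. The NF-kB subunit genes were named in addition.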

Additional observations from a re-analysis of the deposited data

Results flagged for a closer look

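The change of Lif with DP differed between genotypes, by -1.29 on the log2 scale (dKO minus wild type). Lif was higher with DP in 6 of 6 lines, and the rise in each of the 3 dKO lines was smaller than in each of the 3 wild-type lines. Both changes were known when the family was chosen, so this is a description and not a test.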

How the results depend on the processing

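Between genotypes 7 members were called in ethanol and 7 under DP each time 1 of the arrays compared was left out. In wild type 3 to 4 members were called for DP and in dKO 1 to 1 when single arrays were left out, and for the difference of responses 1 to 2. For DP in dKO 2 members were called with array weights, whose estimation stopped before full convergence, and 0 with the mean of all probe sets of a gene (limma; 3 at an unadjusted p under 0.05). For the difference of responses 2 members were called with array weights, with median centring, with an intensity trend and with the MEF line as a replicate block, Il6 joining Lif each time (both genes whose changes were known when the family was chosen, so that nothing is read from it), and 0 with the mean of probe sets (limma; 4 at an unadjusted p under 0.05). The block changed no other call of a member. No called member change reversed its sign under the 21 settings, and 14 of the 50 member changes, all uncalled, changed sign in at least 1. Values near the blank level limit what can be said of Il6, Il11 and Clcf1 in dKO cells.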
